A study of Caenorhabditis elegans with 8 samples.

Results

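The genes described here are 37 *Caenorhabditis elegans* genes for DNA repair and damage signaling outside nucleotide excision repair (NER), the route that removes bulky lesions such as UV photoproducts. They were chosen by name from known function and not by their measured values, though with earlier results of these data known. Each is the only gene annotated to at least 1 probe set, so that 37 of the 17118 genes that could be measured, and 47 of 22548 probe sets, are concerned. Gene expression was measured on 8 arrays in *glp-1* nematodes of 3 stages. There were 3 pools of embryos, 3 pools of young adults (day 1 of adulthood) and 2 pools of aging adults (day 6). Every pool came from strain JK1107, genotype *glp-1*(q224) III, fed OP50 bacteria, so that the mutation was shared by all groups and no wild-type animals are compared. The embryos were of mixed developmental stage, numbered about 5000 a pool by the labels, and were collected by bleach and NaOH from parents kept at 15°C. Both adult groups (3000 to 5000 animals a pool) were hatched at 20°C from eggs of parents kept at 15°C and raised at 25°C, a temperature at which the germ cells of this mutant do not proliferate. The labels give a transfer interval of 2 days for the aging adults alone, so that this handling and age cannot be told apart. Adults of this mutant raised in that way hold few germ cells, whereas the embryos come from fertile parents and hold dividing cells. Nothing in the labels says that pools of 1 group came from separate cultures, so the tests measure only the spread between these pools.

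DNA repair pathways divide by the lesion they handle. Base excision repair removes single damaged bases, mismatch repair corrects replication errors, and double-strand breaks are mended either by homologous recombination, which copies an intact sister chromatid, or by end joining, which rejoins the ends directly. Polymerases for lesion bypass let replication pass damaged bases, and the checkpoint kinases halt the cell cycle or trigger germ cell death when damage is sensed. In *C. elegans* most of these pathways are known from the germ line and the embryo, where cells divide, while the adult soma is postmitotic.

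The values are background-subtracted array intensities in arbitrary units, and levels of different genes cannot be compared. Background subtraction leaves negative values, and the 95th percentile of their sizes on an array was taken as its noise level (24.4 to 27.7 on embryo arrays, 28.7 to 35.04 on young adult arrays and 29.5 to 33.8 on aging adult arrays). The median intensity was 56.2 to 64.2 on embryo arrays, 19.1 to 21.9 on young adult arrays and 32.4 to 36.9 on aging adult arrays. Division of every array by its own median makes the fold changes below relative to the typical probe set of a stage, and a gene not above noise is known less precisely in young adults than in embryos. The stage labels were checked against marker genes. The 9 adult body markers measured, yolk protein, muscle and cuticle genes among them, were above noise on every adult array, and 5 of the 9 were so in embryos. Of 22 germ line and oocyte markers, 20 were above noise on every embryo array, 3 on every young adult array and 5 on every aging adult array. In adults 2 of these, *perm-2* and *perm-4*, held nearly all of the list's summed level, and the other 20 had summed levels of 103 to 136 array medians in embryos, with young adults at 6.55 to 8.10 and aging adults at 8.74 to 9.58. None of the 11 sperm markers was above noise on every array of a stage.

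Nearly all of the 37 repair and checkpoint genes were measurable in embryos and few were in adults. In embryos 36 of 37 (97.3%) were above noise on every array, against 54.2% of all genes. In young adults 5 (13.5%) were, against 35.7% of all genes, and in aging adults 14 (37.8%), against 46.9%. The 5 genes seen on every array of all stages were *apn-1*, *rad-51*, *cku-70*, *lig-4* and *atl-1*. For a gene with several probe sets this is read on their median, as its values below are. Another 18 genes were above noise on every embryo array and on no adult array, though 1 of the 2 probe sets of *brc-1* (young adult array 1 and aging adult array 2) and of *cep-1* (aging adult array 2) exceeded it there, and *chk-2* was above noise on no array. With 1 detection level for all arrays (1.68 array medians, the highest noise level of the 8), 27 of the 37 passed on every array in embryos, 5 in young adults and 8 in aging adults, against 38.6%, 34.4% and 39.0% of all genes. In whole animals, fewer cells of a type and less RNA per cell cannot be told apart.

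**Figure D1:**
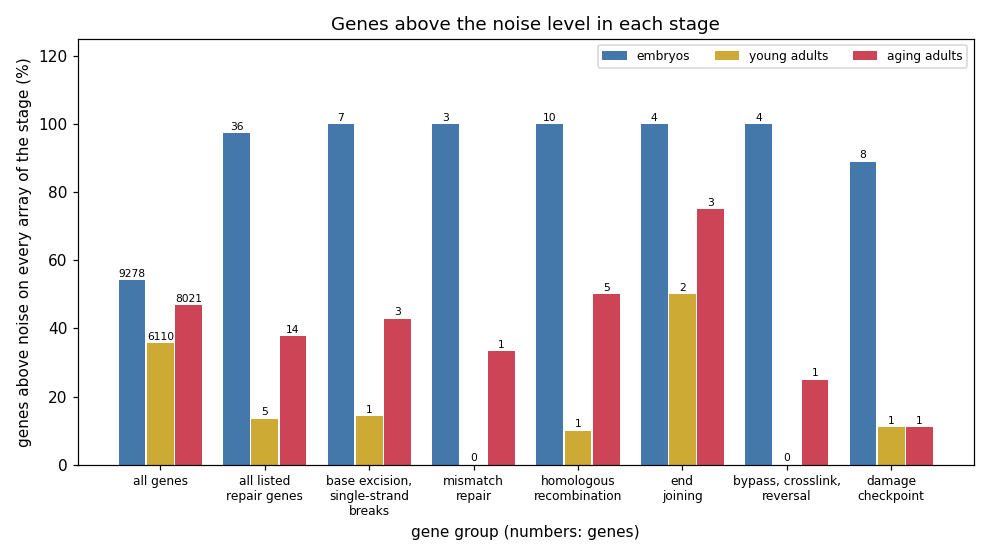
Share of genes above the noise level on every array of a stage (vertical axis, %), for all 17118 genes, the 37 repair and checkpoint genes and their 6 roles (horizontal axis). Bars run from embryos through young adults to aging adults and the number over each bar is its count of genes: 36, 5 and 14 of the 37 genes passed in the 3 stages.

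The 37 genes were mostly lower in adults than in embryos. In young adults 27 of the 37 genes were lower than in embryos, where 22.5% of all genes were called lower, and 1 was higher, where 31.2% of all genes were. In aging adults 20 were lower than in embryos (17.8% of all genes) and 1 was higher (27.1% of all genes). On the log2 scale the median of the 37 genes lay 3.62 below that of all genes in young adults over embryos and 2.41 below it in aging adults over embryos. Many of these fold changes stand on adult values near or below 0, which were set to a floor of 0.01, and their size then reflects the floor. For a gene above noise on every array of 1 stage and on none of the other, the fold is therefore given as a bound against the noise level of the arrays where it was under it. The adjusted p-value printed beside a bound is from the fit with the floor of 0.01 and does not test the bound. Where adult values were set to that floor, the p-value reflects the floor too. Raising all values below 1.68 array medians to that level, a choice made after the data had been seen, left 26 of 37 lower in young adults (17.7% of all genes) and 23 lower in aging adults (15.6%), and none higher in young adults (18.2% of all genes) or aging adults (17.1%). The median of the 37 on the log2 scale was then -0.88 in young adults and -0.87 in aging adults, with all genes at 0. Against the folds with this common floor, the bounds against noise were 0.978 to 1.11 times as large for 21 genes in young adults over embryos and 1.16 to 1.83 times as large for 15 genes in aging adults over embryos. This common floor ended the calls of *nth-1*, *exo-3*, *polq-1*, *dog-1* and *chk-2* in young adults and of *nth-1*, *top-3A*, *lig-4* and *dog-1* in aging adults. It added *mlh-1*, *rad-50* and *hus-1* as lower in both adult stages, and *brc-1*, *brd-1* and *him-6* in aging adults alone of the 2 comparisons, since young adults were already called lower for these.

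**Figure D2:**
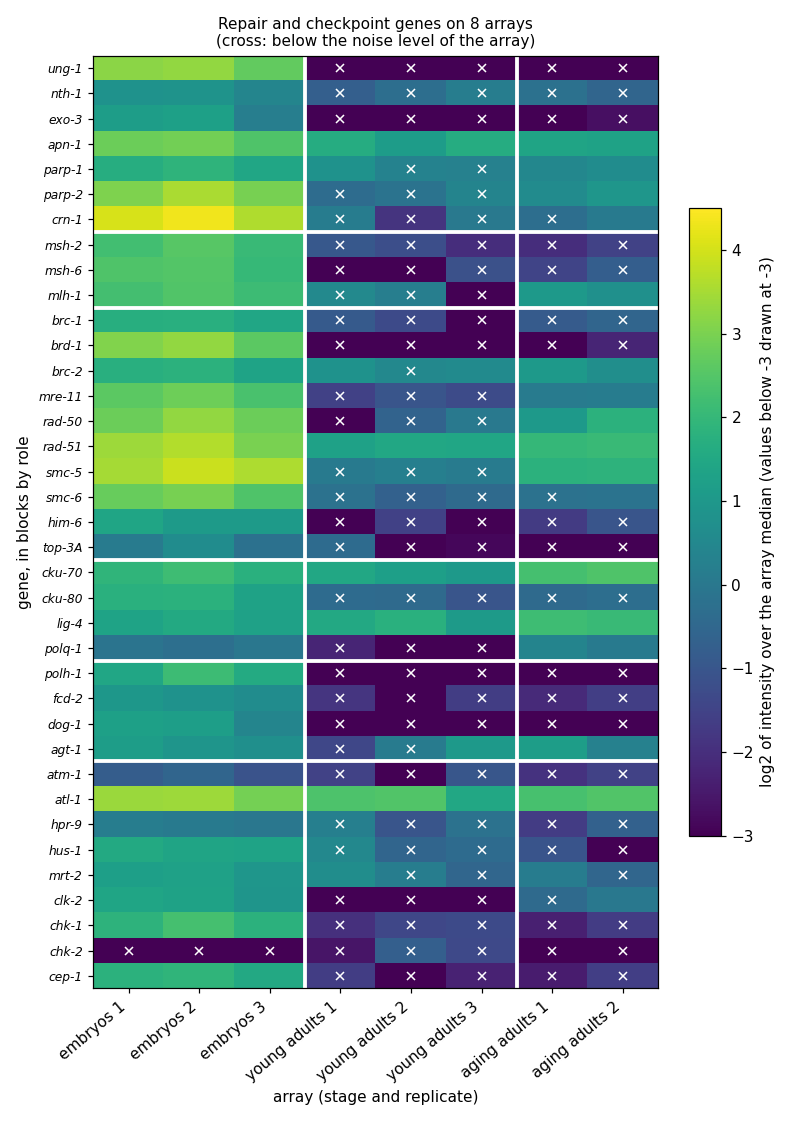
Level of each of the 37 genes (rows, in blocks by role in the order of the text) on each of the 8 arrays (columns), as log2 of intensity over the array median. Crosses mark values below the noise level of the array: 36 genes carry no cross in embryos, and 5 carry none on any array.

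Base excision repair genes were all above noise in embryos, while 5 of 7 were so on no young adult array and 3 of 7 on no aging adult array. All 7 genes of this group, which includes single-strand break repair, were lower in young adults than in embryos (22.5% of all genes). In aging adults 6 of 7 were lower than in embryos (17.8% of all genes). The gene *crn-1*, the flap endonuclease homologue that also degrades DNA in dying cells, had intensities of 929.6, 1306 and 768 in embryos, 21.02, 5.66 and 22.4 in young adults and 30.4 and 34.8 in aging adults. All young adult values lay under the noise level, so that *crn-1* was at least 10.6-fold lower there than in embryos (adjusted p = 0.000479). The uracil-DNA glycosylase gene *ung-1*, whose product removes uracil from DNA, had intensities of 518, 625 and 410.02 in embryos, -15.4, -11.8 and -19.9 in young adults and -20.5 and -7.15 in aging adults. No adult array gave a value above 0, and *ung-1* was at least 5.54-fold lower in young adults (adjusted p = 4.7e-05) and at least 9.17-fold lower in aging adults (adjusted p = 9.24e-05) than in embryos, or 5-fold lower in both with the common floor.

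Apurinic endonucleases, which cut the backbone at a site that has lost its base, were represented by 2 genes, and 1 of them stayed above noise in adults. Intensities of *apn-1* were 395, 483 and 336 in embryos, 60.1, 46.5 and 68.4 in young adults and 96.8 and 81.4 in aging adults. It stayed above noise on every array and was 2.35-fold lower in young adults than in embryos (log2 fold change -1.23, SE 0.20, adjusted p = 0.00197) and 2.56-fold lower in aging adults (adjusted p = 0.00299). Without the division by the array median, these log2 fold changes of *apn-1* were -2.80 in young adults and -2.17 in aging adults. Intensities of *exo-3* were 127, 155 and 72.2 in embryos, -2.10, -7.58 and 2.43 in young adults and -4.84 and 4.97 in aging adults. Both adult stages were under noise, *exo-3* was at least 1.22-fold lower in young adults than in embryos (adjusted p = 0.0367), and the comparison of aging adults with embryos missed the threshold (adjusted p = 0.0913). The *exo-3* call was lost without any 1 of the embryo arrays or young adult array 1 or 2 (adjusted p = 0.0768 to 0.0992). For *nth-1*, a glycosylase for oxidized bases, intensities were 99.3, 116 and 84.02 in embryos, 11.4, 16.9 and 24.6 in young adults and 32.2 and 22.3 in aging adults. The gene was lower in young adults (adjusted p = 0.0341) and in aging adults (adjusted p = 0.045), with bounds of 1.07-fold and 1.78-fold. The *nth-1* call in young adults was lost without embryo array 1 or 2 or young adult array 1 or 2 (adjusted p = 0.0686 to 0.106), and that in aging adults without any 1 embryo or aging adult array or young adult array 2 (adjusted p = 0.0554 to 0.192).

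The poly(ADP-ribose) polymerases, which mark strand breaks for repair, were represented by 2 genes. Intensities of *parp-2*, the median of 2 probe sets, were 469, 757 and 486 in embryos, 14.9, 18.8 and 28.5 in young adults and 56.7 and 61.7 in aging adults. The young adult values lay under noise and the aging adult values above it. Against embryos *parp-2* was at least 6.04-fold lower in young adults (adjusted p = 8.08e-05) and 5.35-fold lower in aging adults (adjusted p = 0.000686). Intensities of *parp-1* were 179.7, 238 and 171 in embryos, 33.7, 26.1 and 26.8 in young adults and 50.6 and 50.4 in aging adults, and of the young adult arrays only array 1 exceeded its noise level. Young adults were lower than embryos (adjusted p = 0.00354). In aging adults *parp-1* was 2.18-fold lower than in embryos (adjusted p = 0.0101, and 0.0592 without aging adult array 1).

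Mismatch repair was carried by 3 measured genes, and 2 of the 3 were called lower in each adult stage than in embryos (22.5% of all genes in young adults and 17.8% in aging adults). Products of *msh-2* and *msh-6* form the dimer that recognizes a mispaired base. Intensities of *msh-2* were 261, 375 and 264 in embryos, 9.95, 9.09 and 5.45 in young adults and 9.04 and 11.3 in aging adults. Those of *msh-6* were 305, 359.6 and 253 in embryos, 2.33, 2.49 and 9.95 in young adults and 13.4 and 19.2 in aging adults. No adult array was above noise for either gene. The bounds were close for both genes, at least 3.21-fold and 3.29-fold lower in young adults than in embryos (adjusted p = 0.000192 and 0.000515), and at least 5.32-fold and 5.44-fold lower in aging adults (adjusted p = 0.000287 and 0.00517).

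The gene *mlh-1*, for the subunit that acts after recognition, had intensities of 269.8, 354 and 277 in embryos, 27.5, 24.1 and 0.72 in young adults and 76.3 and 55.1 in aging adults. All embryo values exceeded all adult values, but neither adult stage passed the test against embryos (adjusted p = 0.0572 in young adults and 0.508 in aging adults). The low value of young adult array 3 widened the spread on the log scale, and with that array left out aging adults were lower than embryos (adjusted p = 0.00205). With the common floor *mlh-1* was lower in both adult stages (adjusted p = 0.00173 in young adults and 0.00403 in aging adults). The 2 probe sets of *mlh-1* disagreed in level, with 1 above noise on every young adult array and the other on none.

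Homologous recombination, with 10 genes, was seen in full in embryos and in part in adults. Of the 10 genes 8 were lower in young adults (22.5% of all genes) and 6 in aging adults (17.8% of all genes) than in embryos. None was higher (31.2% of all genes in young adults and 27.1% in aging adults). The gene *smc-5* encodes a subunit of the complex that holds sister chromatids for repair, together with the *smc-6* product. Its intensities were 629.6, 959 and 754 in embryos, 20.1, 24.7 and 23.9 in young adults and 129 and 117 in aging adults, 3 levels without overlap. Young adults, all under noise, were at least 8.35-fold lower than embryos (adjusted p = 9.14e-06), and aging adults were 3.56-fold lower than embryos (log2 fold change -1.83, SE 0.17, adjusted p = 0.0002). Intensities of *smc-6* were 382, 498 and 341 in embryos, 16.8, 13.05 and 16.3 in young adults and 32.9 and 29.6 in aging adults, where only array 2 exceeded its noise level. In young adults *smc-6* was at least 4.36-fold lower than in embryos (adjusted p = 4.82e-05), and it was lower in aging adults too (adjusted p = 0.000144).

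The recombinase gene *rad-51*, whose product forms the filament that searches for a matching strand, was the only recombination gene above noise on all 8 arrays. Its intensities were 588, 794 and 500.2 in embryos, 46.5, 59.1 and 59.6 in young adults and 146 and 138 in aging adults. It was 3.81-fold lower in young adults (log2 fold change -1.93, SE 0.18, adjusted p = 0.000153) and 2.46-fold lower in aging adults (adjusted p = 0.00224) than in embryos. The break-end processing genes *mre-11* and *rad-50*, whose products work in 1 complex, were both above noise in aging adults and under it in young adults. For *mre-11* this is read on the median of 2 probe sets that disagreed in aging adults. Of these, 1 read 69.3 and 59.9 there, and the other read 22.7 and 21.8, under noise on both arrays. Intensities of *mre-11* were 339.8, 460.3 and 318 in embryos, 6.53, 10.3 and 9.02 in young adults and 39.7 and 36.2 in aging adults, and it was at least 3.99-fold lower in young adults (adjusted p = 2.77e-05) and 5.51-fold lower in aging adults (adjusted p = 0.000363) than in embryos. Intensities of *rad-50* were 395, 630.5 and 439 in embryos, -1.79, 13.6 and 22.6 in young adults and 74.9 and 114 in aging adults. The stages did not overlap, yet *rad-50* missed the threshold against embryos in both young adults (adjusted p = 0.0737) and aging adults (adjusted p = 0.715). In these fits the negative value of young adult array 1 was set to the floor. Without that array aging adults passed (adjusted p = 0.0137), and with the common floor both stages did (adjusted p = 0.000669 in young adults and 0.00626 in aging adults).

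The homologues of the human breast cancer genes were lower in young adults than in embryos in all 3 cases. Intensities of *brd-1*, the BARD1 homologue, were 477, 619 and 378 in embryos, -6.84, -7.20 and 0.823 in young adults and 4.48 and 6.98 in aging adults, at least 5.23-fold lower in young adults than in embryos (adjusted p = 0.00117). Intensities of its partner *brc-1*, the BRCA1 homologue, were 182, 212 and 169 in embryos, 10.4, 8.36 and 0.442 in young adults and 20.4 and 22.3 in aging adults, lower in young adults than in embryos (adjusted p = 0.022). These are medians of 2 probe sets that disagreed in adults, where 1 read 32.2 on young adult array 1 and 36.7 on aging adult array 2, over the noise levels of 28.7 and 29.5, and the other was under noise on every adult array. The *brc-1* call was lost without any 1 embryo array (adjusted p = 0.0553 to 0.0634). In aging adults neither partner passed against embryos (adjusted p = 0.0545 for *brd-1* and 0.207 for *brc-1*), though no aging adult value of *brd-1* or median of *brc-1* was above noise and the common floor gave a lower level for both (adjusted p = 0.000561 and 0.000681). The BRCA2 homologue *brc-2*, which loads the recombinase, had intensities of 187, 226 and 158 in embryos, 33.9, 29.8 and 32.7 in young adults and 74.5 and 52.5 in aging adults. It was lower in young adults than in embryos (adjusted p = 0.00598) and 1.71-fold lower in aging adults than in embryos (adjusted p = 0.031), a call lost without embryo array 1 or 2 or either aging adult array (adjusted p = 0.0565 to 0.164).

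The remaining pair, *him-6* and *top-3A*, encode a BLM-type helicase and a topoisomerase that undo recombination intermediates. Intensities of *him-6* were 148, 136 and 133 in embryos, -0.423, 7.18 and -3.23 in young adults and 11.5 and 16.03 in aging adults, and it was at least 1.51-fold lower in young adults than in embryos (adjusted p = 0.0206). The *him-6* call was lost without any 1 embryo array or without young adult array 1 or 3 (adjusted p = 0.0537 to 0.0616). Intensities of *top-3A* were 61.2, 99.8 and 54.1 in embryos, 14.6, 1.24 and 3.02 in young adults and -2.03 and -2.40 in aging adults, and only the embryo values exceeded noise. Aging adults were called lower than embryos for *top-3A* (adjusted p = 0.00051, a bound of 1.24-fold), and young adults were not (adjusted p = 0.112).

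End joining genes were partly above noise in adults, 2 of 4 in young adults and 3 of 4 in aging adults. Of the 4 genes, 3 were lower in young adults than in embryos (22.5% of all genes). In aging adults 1 (25%) was lower than in embryos, against 17.8% of all genes, and 1 (25%) was higher, against 27.1% of all genes. The Ku proteins bind broken ends as a pair, and of their genes *cku-70* was above noise in adults and *cku-80* was not. Intensities of *cku-70* were 211, 287 and 214 in embryos, 54.3, 49.6 and 45.6 in young adults and 181 and 175 in aging adults. Over the array median, young adults were 1.60-fold lower than embryos (log2 fold change -0.68, SE 0.18, adjusted p = 0.0161, and 0.0576 without embryo array 2). Without the division by the median that log2 fold change was -2.24. Aging adults had a log2 fold change over embryos of 0.42 (SE 0.20, adjusted p = 0.135), or -0.40 when the arrays were not divided by their medians. Intensities of *cku-80* were 189, 223 and 156 in embryos, 14.7, 15.8 and 10.8 in young adults and 27.99 and 26.6 in aging adults. No adult array exceeded noise for *cku-80*, which was at least 2.04-fold lower in young adults (adjusted p = 0.000536) and at least 3.37-fold lower in aging adults (adjusted p = 0.00218) than in embryos.

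The gene for the ligase that seals the joined ends, *lig-4*, had intensities of 143, 190.5 and 153 in embryos, 54.7, 70.9 and 46.9 in young adults and 166 and 137 in aging adults. Young adults did not differ from embryos beyond the error over the array median (log2 fold change 0.06, SE 0.20, adjusted p = 0.82), while their deposited intensities were lower without overlap and passed without the division by the median (log2 fold change -1.51, adjusted p = 0.00104). Aging adults were 1.65-fold higher than embryos (log2 fold change 0.73, SE 0.23, adjusted p = 0.0364). That call was lost on leaving out any 1 embryo or aging adult array (adjusted p = 0.0529 to 0.153), and without the division the log2 fold change was -0.09. Polymerase theta, which joins ends through short matching stretches, is encoded by *polq-1*. The medians of its 3 probe sets were 52.4, 53.03 and 60.9 in embryos, 4.12, 1.04 and 2.59 in young adults and 48.6 and 33.7 in aging adults. Of the 3 probe sets, 1 was at or near 0 in every stage, and the other 2 read between 52.4 and 82.3 in embryos, between 1.04 and 15.0 in young adults and between 33.7 and 63.99 in aging adults. The *polq-1* median was lower in young adults than in embryos (adjusted p = 0.00442), with no bound above 1 because the embryo level over the array median lay under the young adult noise level.

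**Figure D3:**
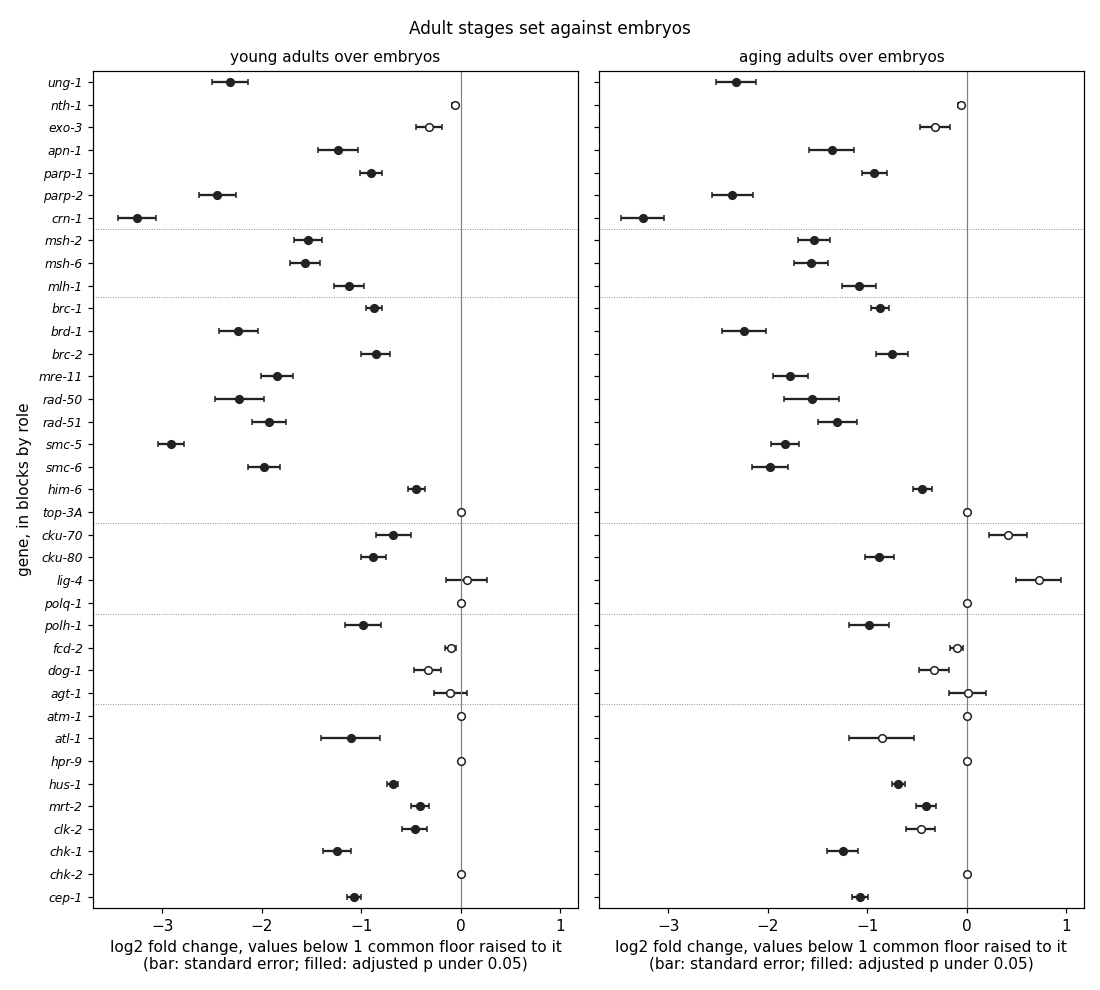
Log2 fold change (horizontal axis, bar: standard error) of each of the 37 genes (rows, in blocks by role) in young adults over embryos and in aging adults over embryos, after values below 1.68 array medians were raised to that level. Filled points passed at an adjusted p under 0.05, 26 of 37 in young adults and 23 of 37 in aging adults, all to the left of 0, and genes under the level in both stages stand at 0.

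Lesion bypass, crosslink repair and direct reversal were dim in adults. Intensities of *polh-1*, the bypass polymerase eta gene, were 151, 286 and 189.5 in embryos, -0.599, -5.26 and -3.80 in young adults and 2.23 and 2.45 in aging adults. Adult values were all near 0, and *polh-1* was at least 2.19-fold lower in young adults (adjusted p = 6.39e-05) and at least 3.62-fold lower in aging adults (adjusted p = 0.00565) than in embryos. With the common floor the adjusted p-values of *polh-1* were 0.00646 in young adults and 0.012 in aging adults. The helicase gene *dog-1*, the FANCJ homologue that protects guanine-rich tracts, had intensities of 135, 149 and 83.1 in embryos, -18.9, -32.99 and -21.3 in young adults and -8.10 and -15.2 in aging adults. All adult values of *dog-1* were negative, with bounds of 1.29-fold lower in young adults (adjusted p = 6.33e-05) and 2.13-fold lower in aging adults (adjusted p = 0.000116), and neither call held with the common floor (adjusted p = 0.128 and 0.185).

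The crosslink repair gene *fcd-2*, the FANCD2 homologue, had intensities of 110.4, 113 and 98.3 in embryos, 5.35, -5.22 and 7.06 in young adults and 8.48 and 10.6 in aging adults. Neither adult stage passed against embryos (adjusted p = 0.0907 in young adults and 0.467 in aging adults), although no adult value reached noise. The alkyltransferase gene *agt-1*, whose product takes alkyl groups directly off guanine, had intensities of 127, 122 and 104 in embryos, 7.19, 22.6 and 45.1 in young adults and 83.1 and 40.02 in aging adults. Its adult replicates spread widely, and aging adults had a log2 fold change over embryos of -0.21 (SE 0.68, adjusted p = 0.827), which turned positive without aging adult array 2 (0.22).

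Damage checkpoint genes were read in 9 cases, of which 5 were lower (22.5% of all genes) and 1 higher (31.2% of all genes) in young adults than in embryos. In aging adults 3 were lower than in embryos (17.8% of all genes). Of the 2 sensor kinase genes, 1 was above noise in adults. Intensities of *atl-1*, the ATR homologue, were 582, 681 and 478 in embryos, 102, 116 and 62.1 in young adults and 183 and 178 in aging adults, above noise on all 8 arrays. It was 2.16-fold lower in young adults than in embryos (log2 fold change -1.11, SE 0.29, adjusted p = 0.0151), a call lost without embryo array 1 or 2 (adjusted p = 0.0521 and 0.0532). In aging adults the fold change missed the threshold (log2 -0.85, SE 0.32, adjusted p = 0.068) and passed without young adult array 3 (adjusted p = 0.00994). Intensities of *atm-1*, the ATM homologue, were 32.6, 43.5 and 29.4 in embryos, 6.59, 2.48 and 10.996 in young adults and 9.81 and 11.3 in aging adults, so that even the embryo values were only just above noise.

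Downstream of the sensors, *chk-1* encodes an effector kinase and *cep-1* the p53 homologue that drives germ cell death after damage. Intensities of *chk-1* were 203, 316 and 219.96 in embryos, 4.94, 7.87 and 8.82 in young adults and 7.21 and 10.3 in aging adults. Intensities of *cep-1* were 197, 242 and 179 in embryos, 6.15, 0.499 and 4.49 in young adults and 6.85 and 10.6 in aging adults. Each gene has 2 probe sets, and no adult median of either gene was above noise, though 1 *cep-1* probe set read 35.5 on aging adult array 2, over that array's level of 29.5. Against embryos *chk-1* was at least 2.62-fold lower in young adults (adjusted p = 0.00018) and at least 4.35-fold lower in aging adults (adjusted p = 0.000252). The gene *cep-1* was at least 2.22-fold lower in young adults (adjusted p = 0.00491) and was lower in aging adults too (adjusted p = 0.0291), and the call in aging adults was lost on leaving out any 1 embryo or aging adult array (adjusted p = 0.0623 to 0.136).

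Clamp subunits *hus-1*, *mrt-2* and *hpr-9*, whose products form the ring that is loaded at damaged DNA, were all above noise in embryos. Intensities of *hus-1* were 167, 166 and 159.8 in embryos, 26.9, 14.3 and 16.998 in young adults and 17.7 and -5.27 in aging adults, and neither adult stage passed against embryos (adjusted p = 0.612 in young adults and 0.0506 in aging adults), while both did with the common floor (adjusted p = 0.000207 and 0.000462). Intensities of *mrt-2* were 132, 157 and 121 in embryos, 30.3, 23.7 and 15.3 in young adults and 40.6 and 22.5 in aging adults, lower in young adults (adjusted p = 0.044) and in aging adults (adjusted p = 0.0307) than in embryos. The *mrt-2* call in young adults was lost without any 1 array except young adult array 1 (adjusted p = 0.0501 to 0.121), and that in aging adults without any 1 embryo or aging adult array (adjusted p = 0.0515 to 0.173). Intensities of *hpr-9* were 63.1, 68.5 and 61.99 in embryos, 22.6, 10.3 and 19.2 in young adults and 11.6 and 20.2 in aging adults, and neither stage passed (adjusted p = 0.472 in young adults and 0.0763 in aging adults).

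The gene *clk-2*, a TEL2 homologue that is needed for checkpoint signaling, had intensities of 150.2, 159 and 117 in embryos, -19.01, -5.26 and -13.4 in young adults and 27.98 and 32.6 in aging adults. Every young adult value was negative, and *clk-2* was at least 1.53-fold lower there than in embryos (adjusted p = 5.35e-05, and 0.0347 with the common floor). The kinase gene *chk-2*, which in the worm acts in meiosis, read -5.27, -10.8 and -10.3 in embryos, 3.20, 12.6 and 8.58 in young adults and -15.9 and -0.80 in aging adults. The test called *chk-2* higher in young adults than in embryos (adjusted p = 4.91e-05), but no value was above noise and no fold is given.

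Between the adult stages, the recombination gene *smc-5* and the end joining gene *cku-70* were higher in aging adults than in young adults. In all, 6 of the 37 were higher, where 2.74% of all genes were called higher, and 2 were lower, where 4.44% were. The median of the 37 genes lay 0.64 above that of all genes on the log2 scale. That difference was 0.051 with values raised to the noise level of each array and 0 with the common floor. Only 2 of the 6, *smc-5* and *cku-70*, remained with the common floor (2.07% of all genes higher), and none was then lower (3.91% of all genes). When the arrays were not divided by their medians, which moved the median of all genes by 0.74, 13 were higher (15.9% of all genes) and 2 lower (1.90%). With 1 array left out, 3 were higher without embryo array 1 or aging adult array 1 and 2 without aging adult array 2. The gene *smc-5* was at least 2.35-fold higher in aging than in young adults (adjusted p = 0.00303), or 2.12-fold with the common floor, with 129 and 117 on the aging adult arrays and 20.1, 24.7 and 23.9 on the young adult arrays. It kept its call under each of the 19 alternatives tried, 8 of which left out 1 array each (adjusted p = 0.000561 to 0.0376).

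The rise of *cku-70* was 2.13-fold over the array median (log2 fold change 1.09, SE 0.20, adjusted p = 0.0229) and 3.58-fold in deposited intensity. It is the only called gene of the 6 that was above noise on every array of both adult stages. The call was lost without aging adult array 1 (adjusted p = 0.0788), aging adult array 2 (adjusted p = 0.150) or embryo array 1 (adjusted p = 0.0566), in a fit of the 2 adult groups alone (adjusted p = 0.0811) and without the variance trend (adjusted p = 0.0691). The end joining ligase gene *lig-4* differed by 0.67 on the log2 scale (SE 0.23, adjusted p = 0.126), with aging adult values above every young adult value on both of its probe sets. For *rad-51*, too, both aging adult values exceeded every young adult value, a difference of 0.63 on the log2 scale (SE 0.20, adjusted p = 0.112). The remaining genes above noise on every array, *apn-1* and *atl-1*, had log2 fold changes of -0.12 (SE 0.23, adjusted p = 0.792) and 0.25 (SE 0.32, adjusted p = 0.69). Both *lig-4* and *rad-51* passed only when the arrays were not divided by their medians (adjusted p = 0.0108 for *lig-4* and 0.0112 for *rad-51*) or, for *lig-4*, when values were raised to the noise level of each array (adjusted p = 0.0403).

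**Figure D4:**
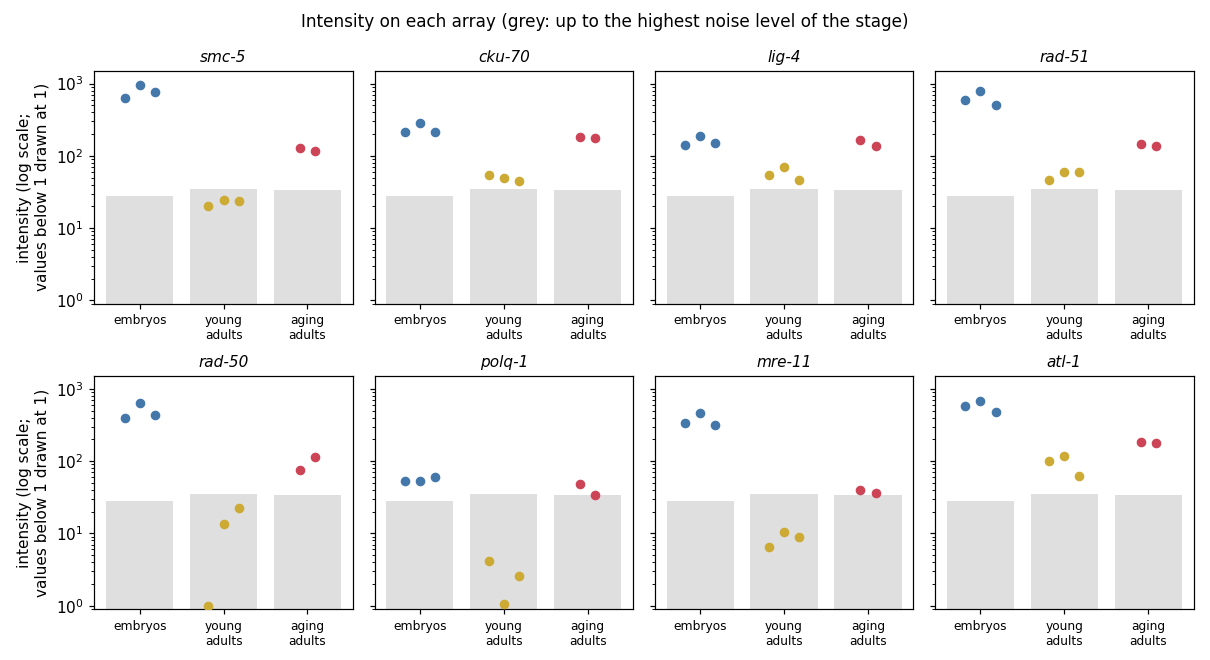
Intensity on each array (vertical axis, log scale, arbitrary units) of 8 repair genes in embryos, young adults and aging adults, 1 point an array, with grey up to the highest noise level of the stage. Aging adult points of *smc-5*, *rad-50* and *mre-11* lie above the grey and those of young adults in it, and for *cku-70* the aging adult arrays (181 and 175) stand above the young adult arrays (45.6 to 54.3).

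The other 4 genes called higher in aging adults rest on values near noise. Both *mre-11* (adjusted p = 0.0244) and *polq-1* (adjusted p = 0.0298) were above noise on both aging adult arrays and on no young adult array by the median of their probe sets. With only the probe set of highest mean level for each gene, neither passed (adjusted p = 0.128 for both). Raised to the noise level of each array, their log2 fold changes were -0.21 and -0.37, since that level is higher over the median in young adults, and neither passed without aging adult array 1 or 2 or embryo array 1 or 2 (adjusted p = 0.0581 to 0.141) or, for *polq-1*, embryo array 3 (adjusted p = 0.0625). For *clk-2* (adjusted p = 0.00223) the aging adult values of 27.98 and 32.6 were set against young adult values that were all negative, and only the higher one exceeded noise. For *polh-1* (adjusted p = 0.012, and 0.0599 without aging adult array 2) both stages were under noise, as they were for the 2 genes called lower, *top-3A* (adjusted p = 0.0104) and *chk-2* (adjusted p = 0.00177). In all, 6 genes were above noise on both aging adult arrays and on no young adult array by the median of their probe sets: *parp-2*, *mlh-1*, *mre-11*, *rad-50*, *smc-5* and *polq-1*. Of the ones not called, *parp-2* had a bound of 1.13-fold (adjusted p = 0.147) and *rad-50* of 1.76-fold (adjusted p = 0.364). No bound holds for *mlh-1* (adjusted p = 0.422), since 1 of its 2 probe sets was above noise on every adult array, at 126 and 96.1 in aging adults and 71.3, 64.8 and 51.8 in young adults.

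Some germ cell and adult body genes also differed between the adult stages. Of the 22 germ line and oocyte markers, *glh-1* (adjusted p = 0.00154) and *glh-4* (adjusted p = 0.0168) were called higher and *him-3* lower (adjusted p = 0.00764) in aging adults than in young adults. Of these, *him-3* was above noise on no adult array and *glh-4* on 1 aging adult array alone. Over the 22 markers the median log2 fold change was -0.59, and 6 had a positive value. The germ granule helicase gene *glh-1* and oocyte gene *oma-2* were above noise on both aging adult arrays and on no young adult array. Their means were 1.64 and 1.57 array medians in aging adults. The young adult means of 0.016 and 0.294 rest on values under noise. With values raised to the noise level of each array, the log2 fold changes were only 0.064 and 0.050. The test did not call *oma-2* (adjusted p = 0.141). Of the 22 markers 5 were above noise on both aging adult arrays, 1 on 1 of them and 16 on neither, against 3 on every and 19 on no young adult array. These counts include *perm-2* and *perm-4*, which were above noise on every adult array and on no embryo array. Of the other 20 markers, 3 were above noise on both aging adult arrays and 1 on every young adult array. Over the array median, the 9 adult body markers all had lower means in aging adults (median log2 fold change -1.22). Of them *act-4* (log2 fold change -0.92, adjusted p = 0.0174) and *ges-1* (log2 fold change -1.77, adjusted p = 0.0216) were called lower. Array medians were higher in aging adults, so that a gene of unchanged intensity had a log2 fold change of -0.75 in this comparison. In deposited intensity the 9 body markers summed to 52852 to 61040 on young adult arrays and to 45193 to 49107 on aging adult arrays. The part of germ cell or body RNA in the values of the repair genes was not tested.

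**Figure D5:**
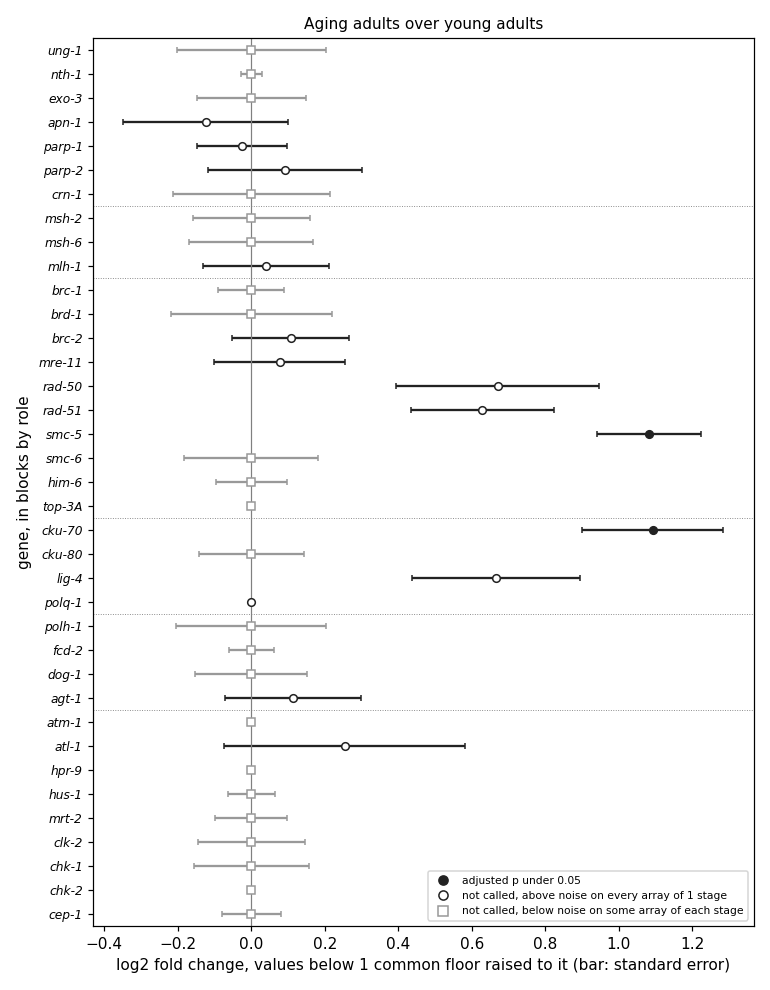
Log2 fold change in aging adults over young adults (horizontal axis, bar: standard error) of each of the 37 genes (rows, in blocks by role), after values below 1.68 array medians were raised to that level. Only *smc-5* and *cku-70* are filled, at 1.08 and 1.09, while genes under the level in both stages stand at 0.

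Other repair genes outside NER that were not among the 37 were read in the same way. Of 41 such genes with a probe set, 38 were above noise on every embryo array, 8 on every young adult array and 16 on every aging adult array. In young adults 29 of the 41 were lower than in embryos (22.5% of all genes) and 1 was higher (31.2% of all genes). In aging adults 21 were lower than in embryos (17.8% of all genes) and 1 was higher (27.1% of all genes). In aging adults over young adults 1 was higher and 1 was lower, 2.44% each, against 2.74% and 4.44% of all genes. The gene higher in aging adults was *parg-1*, for a glycohydrolase that removes poly(ADP-ribose), differing by 1.46 on the log2 scale (SE 0.18, adjusted p = 0.00616) and above noise on all 8 arrays. Genes for DNA replication, which the embryo's divisions require, were lower in young adults than in embryos for 31 of 34 (22.5% of all genes). In aging adults 29 of 34 were lower than in embryos (17.8% of all genes). Of 22 NER genes, 11 were lower in young adults (22.5% of all genes) and 8 in aging adults (17.8% of all genes) than in embryos. On every aging adult array 20 of the 22 were above noise, against 14 of the 37 genes described here. In aging over young adults 1 NER gene, *rad-23* (adjusted p = 0.0239), was higher (2.74% of all genes) and 0 were lower (4.44%). Median log2 fold changes relative to all genes were then 0.64 for the 37 genes, 0.60 for NER genes, 0.43 for the other repair genes and 0.011 for replication genes. Median log2 fold changes relative to all genes in young adults over embryos were -3.62 for the 37 genes and -2.51 for the other repair genes. They were -6.24 for replication genes and -1.27 for NER genes. These sizes too reflect the floor of 0.01. With values raised to the noise level of each array, medians over genes above noise on any array compared were -1.02, -0.64, -2.39 and -0.65, with all genes at 0.56. The replication and NER lists share *rpa-1*, *rpa-2* and *lig-1*, and *pcn-1* is in the lists of replication and other repair genes. The lists were not tested against each other.

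Some of the 37 genes lie near each other on the chromosomes, and adjacent worm genes can share a promoter or a transcript. Whether any pair does so was not tested. In the RefSeq gene order (assembly WBcel235), in which all 37 symbols were found, 5 pairs had at most 5 protein-coding genes between them. *msh-2* and *hus-1* had none between them, and both were above noise in embryos and in no adult array, a pattern held by 18 of the 37 genes. *top-3A* and *ung-1*, with 1 gene between them, had that pattern too. *brd-1* had it, while its neighbour *brc-2*, with 3 genes between, was above noise on both aging adult arrays. The pair *clk-2* and *lig-4*, with 2 genes between them, differed, since *lig-4* was above noise on every array and *clk-2* on no young adult array. *msh-6* and *crn-1*, the last pair, had 4 genes between them and were both high in embryos and under noise in young adults.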

How the data were processed

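Affymetrix *C. elegans* Genome arrays were hybridized with RNA from 8 pools, grouped by their labels into embryos (3), young adults (3) and aging adults (2). The intensity values were read by the authors with GCOS, loaded into Rosetta Resolver and deposited on a linear scale with background subtracted, for 22548 probe sets. A deposited table of the authors' own comparisons was not used.

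Intensities below 0.01 were set to 0.01, arrays were divided by their medians and log2 was taken, after the GeneSpring steps of the study's methods. Probe sets annotated to 1 gene alone were used, with their median as the gene's value, and 3 probe sets of these genes that are shared with other genes were left out. All 8 arrays were fitted without covariates in limma 3.58.1 (R 4.3.3) with a variance trend. Two-sided p-values were adjusted by Benjamini-Hochberg over 17118 genes and called at 0.05. The number of arrays limits precision. All 37 genes are named, and the genes and lists were chosen with earlier results of these data known. Alternatives were other normalization, floors, filter, probe set rules, fitted groups, variance model, replicate block and each array left out. Nucleotide sequences were not used here, and a planned promoter motif count was not run.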

Additional observations from a re-analysis of the deposited data

How the results depend on the processing

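Against embryos, the counts of genes called lower stayed within 1.5 times under all alternatives but 1 in young adults (20 to 33 against 27) and all but 1 in aging adults (16 to 29 against 20). The exception left out probe sets ending in _s_at or _x_at, with 11 and 9 lower, since fewer of the 37 genes keep a probe set. Between the adult stages the count of 6 higher and 2 lower was less stable. It was 13 higher without rescaling, 3 higher and 1 lower with the 2 groups fitted alone, 2 higher and 0 lower without _s_at and _x_at probe sets and with the common floor added after the data were seen. It was 1 lower with the pseudocount of 0.1 or the filter on dim genes, and 22 lower with values raised to the noise level of each array, where 60.1% of all genes were lower. That last count follows from its construction, since values under noise on both adult stages then differ by the ratio of noise to median, which is higher in young adults. Leaving out 1 array in turn gave 2 to 8 higher and 2 to 3 lower. Genes called higher against embryos numbered 4 (young adults) and 3 (aging adults) with values raised to noise, where 67.3% and 63.8% of all genes were higher, 0 and 0 with the common floor, and in young adults 0 with the filter or without _s_at and _x_at probe sets. In aging adults they numbered 2 with the 2 groups alone, 0 without rescaling, 0 without a variance trend and 0 to 1 with 1 array left out, and *lig-4* was the 1 gene called in the reported fit.

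The median of the 37 genes relative to all genes kept its direction wherever it was not 0. In aging over young adults it was 0.64, and 0.49 under quantile normalization, 0.051 with values raised to noise, 0.31 with the pseudocount, 0.32 with the highest probe set, 0.86 without _s_at and _x_at probe sets, 0.00 with the common floor and 0.24 to 0.64 with 1 array left out. In young adults over embryos it was -3.62, and -2.85 with values raised to noise, -2.86 with the pseudocount, -3.26 with the filter, -3.08 with the highest probe set, -1.77 without _s_at and _x_at probe sets and -0.88 with the common floor. In aging adults over embryos it was -2.41, and -1.99 with the pseudocount, -1.98 without _s_at and _x_at probe sets and -0.87 with the common floor.

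Single genes that turned direction were as follows. In aging over young adults *mre-11* (-0.21), *polq-1* (-0.37), *polh-1* (-0.73) and *clk-2* (-0.66) did so with values raised to noise, *apn-1* (0.62) without rescaling and *atl-1* without young adult replicate 3 (-0.058, with 0.42 the highest value on leaving out 1 array). In young adults over embryos *lig-4* did so without rescaling (-1.51), with the highest probe set or without _s_at and _x_at probe sets (-0.056 for both) and without young adult replicate 2 (-0.092), and *polq-1* with values raised to noise (0.74). In aging adults over embryos *cku-70* (-0.40), *lig-4* (-0.091) and *polq-1* (-0.45) did so without rescaling, and *agt-1* with the replicate block (0.020), without aging adult replicate 2 (0.22, with -0.64 the lowest value on leaving out 1 array) and with the common floor (0.0090). Where no value above shows it, the cause was not tested.

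The labels give replicate numbers in all groups but state no pairing, and deviations of same-numbered arrays correlated between -0.05 and 0.14 over 5161 genes, so the numbers were not taken to pair the pools. With the replicate number as a block, 2 genes were higher and 1 lower in aging over young adults (median 0.53 relative to all genes, *cku-70* not called at an adjusted p = 0.0813), 1 higher and 26 lower in young adults over embryos, and 0 higher and 19 lower in aging adults over embryos. Not every array correlated best with the array of its own number.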
